A study of Homo sapiens with 4 samples.

Results

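The miR-26 family is a set of microRNAs (miRNAs) made from precursors that lie inside introns of CTDSP genes, and its 5 mature strands were examined in cortical interneurons derived from human embryonic stem cells (hESCs). The members were chosen by name: hsa-miR-26a-5p, hsa-miR-26b-5p, hsa-miR-26a-1-3p, hsa-miR-26a-2-3p and hsa-miR-26b-3p, 5 of the 2656 mature miRNAs in the count table. The cells came from the established H1 hESC line, and small RNA was sequenced in 2 cultures exposed to ethanol at around 50 to 100 mM for 7 days and in 2 cultures kept for 7 days without ethanol. The exposed cells spent a further day in medium without ethanol before collection, and all 4 libraries came from 1 hESC line differentiated by 1 protocol. The comparison asks whether 7 days of ethanol altered the level of these strands or the balance between them.

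A miRNA precursor is a hairpin whose stem is cut into a duplex of a 5p and a 3p strand. One strand, the guide, is usually loaded into an Argonaute protein and directs repression of messenger RNAs that match its seed, the stretch near its 5′ end, while the other, the passenger, is mostly degraded. The host genes CTDSP1, CTDSP2 and CTDSPL encode small phosphatases that work with REST, a repressor of neuronal genes outside neurons, and the miR-26 guides are known to repress CTDSP messages and to increase during neuronal differentiation. Another well known target of the guides is the histone methyltransferase EZH2.

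The mature sequences are shown because the seed decides what a strand can target and because the few bases that differ decide which reads can be told apart. They are RefSeq sequences (GRCh38.p14), written 5′ to 3′ with the seed, bases 2 to 8, in capitals.
hsa-miR-26a-5p: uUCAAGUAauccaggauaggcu
hsa-miR-26b-5p: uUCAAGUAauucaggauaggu
hsa-miR-26a-1-3p: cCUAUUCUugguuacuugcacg
hsa-miR-26a-2-3p: cCUAUUCUugauuacuuguuuc
hsa-miR-26b-3p: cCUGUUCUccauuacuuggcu

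The 5p strands, which are the guides of the family, shared the seed UCAAGUA. Counted from 1 at the 5′ end, miR-26a-5p (22 bases) and miR-26b-5p (21 bases) were identical over their first 10 bases and differed at 2 of the 21 positions compared, C11U and C21U, both outside the seed. The passengers fell into separate seed groups, CUAUUCU for miR-26a-1-3p and miR-26a-2-3p and CUGUUCU for miR-26b-3p. miR-26a-1-3p and miR-26a-2-3p were identical over their first 10 bases and differed at 5 positions (G11A, C19U, A20U, C21U and G22C), so that 4 of their 5 differences lay in the last bases of the strand.

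The hairpins are shown with both mature strands in capitals, since they explain which counts point to which gene.
MIR26A1: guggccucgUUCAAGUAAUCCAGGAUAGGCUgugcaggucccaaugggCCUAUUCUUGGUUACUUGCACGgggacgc
MIR26A2: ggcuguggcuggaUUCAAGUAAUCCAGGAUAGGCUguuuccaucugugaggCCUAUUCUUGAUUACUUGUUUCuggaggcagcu
MIR26B: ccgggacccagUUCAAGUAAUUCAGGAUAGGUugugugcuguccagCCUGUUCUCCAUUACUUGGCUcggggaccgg

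MIR26A1 and MIR26A2 encode the same 5p strand, so a read of miR-26a-5p cannot be assigned to either gene, and only the 3p strands tell these genes apart. MIR26A1 lies at chr3:37969404-37969480 on the plus strand of GRCh38, in an intron of CTDSPL that is 3524 bases long (intron 5 of transcript CTDSPL-201 in GENCODE 29). MIR26A2 lies at chr12:57824609-57824692 on the minus strand, in a 2026-base intron of CTDSP2 (intron 5 of transcript CTDSP2-201). MIR26B lies at chr2:218402646-218402722 on the plus strand, in a 629-base intron of CTDSP1 (intron 4 of transcript CTDSP1-201). Each precursor had the strand of its host gene. These positions were matched by gene name, since the counts carry no coordinates and the submitters' processing notes name hg19. Whether the authors counted a miR-26a-5p read once or at each locus is not given in the sources used here. That choice bears on the level of miR-26a-5p against other miRNAs, and a constant factor would cancel between exposed and unexposed cells.

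The libraries held 12100425 to 24858230 counts, and each exposed library was deeper than each unexposed library, so depth and exposure cannot be told apart. All 5 members passed the filter on low counts, which left 863 miRNAs for testing. Levels are given as CPM after scaling by TMM (trimmed mean of M values), written TMM CPM, in which the library is taken as 1000000 counts. A read spans the whole of a mature miRNA, so no length correction applies, but counts of different miRNAs were not corrected for how well each is captured in a library. The 7 neuronal marker miRNAs summed to between 229703 and 250053 CPM before TMM scaling. This sum was carried by miR-9-5p and miR-128-3p, at means of 190816 and 43760 TMM CPM, while miR-137-3p and miR-138-5p were at 75.5 and 55.4. The 8 markers of pluripotent cells summed to between 2.74 and 4.13 CPM, with miR-367-3p, miR-371a-3p and miR-373-3p at 0 counts. Oligodendrocyte, mesenchyme and epithelium lists each lay between 64.3 and 138 CPM. The endothelial list (miR-126 strands) was at 908 and 1158 CPM in exposed and 756 and 858 CPM in unexposed cells. The blood list was at 457 to 510.3 against 257 to 309 CPM, carried by miR-486-5p. The TMM CPM of miR-486-5p did not overlap between groups, as for 33.4% of all miRNAs tested. Its P was 0.0163 and its adjusted p 0.922 in the quasi-likelihood test of edgeR. miR-451a had 12 and 16 counts in exposed and 6 and 1 in unexposed libraries. miR-142-5p had at most 1 count in a library, and miR-223-3p and miR-142-3p had 0. The part of these cell types in the results was not tested, and in bulk RNA fewer cells of a type and less RNA per cell cannot be told apart.

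hsa-miR-26a-5p was among the most abundant miRNAs of these interneurons, ranking 4 or 5 by counts in every library and 3 of 863 by mean TMM CPM. It took 1115176 counts (5.02% of the library, 95% Wilson interval 5.01 to 5.03%) in exposed replicate 1 and 1209935 counts (4.87%, 4.86 to 4.88%) in exposed replicate 2. In the unexposed libraries it took 704277 counts (5.05%, 5.04 to 5.06%) and 615347 counts (5.09%, 5.07 to 5.10%). The share of counts therefore hardly moved between cultures. The intervals hold for counting error alone, as no molecular identifiers were used.

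After TMM scaling, miR-26a-5p was at 44224 and 49708 CPM in exposed and at 59709 and 47825 CPM in the unexposed libraries. The groups overlapped, with exposed replicate 2 above unexposed replicate 2, and unexposed replicate 1 was the highest of the 4. The exposed mean was 46966 ± 3878 and the unexposed mean 53767 ± 8403 (SD, n = 2 each). Exposed over unexposed, this is -0.20 on the log2 scale with a standard error of 0.27, and it was -0.033 without unexposed replicate 1 and -0.381 without unexposed replicate 2. The 95% interval of the change ran from -0.82 to 0.43, or from 0.567-fold to 1.35-fold, and the quasi-likelihood test of edgeR gave 0.490 as P and 0.968 as adjusted p. Without TMM factors the exposed libraries, at 50181 and 48673 CPM, lay just below the unexposed ones, at 50516 and 50853 CPM, and the log2 fold change was -0.036.

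hsa-miR-26b-5p, the guide with the same seed from CTDSP1, was much rarer, at 0.244% and 0.261% of the counts in exposed and 0.245% and 0.289% in unexposed cells. Its level was 2154 and 2670.4 TMM CPM in the exposed libraries against 2892 and 2717 TMM CPM in the unexposed libraries. The exposed libraries lay below the unexposed ones, exposed replicate 2 only narrowly, and before TMM scaling the groups overlapped (2444 and 2615 against 2447 and 2889 CPM). The log2 fold change was -0.22 (standard error 0.22, 95% interval -0.74 to 0.30), and in edgeR's fit it had an adjusted p of 0.940 (0.360 before adjustment). Without exposed replicate 1 the change was -0.072, and without exposed replicate 2 it was -0.375.

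**Figure D1:**
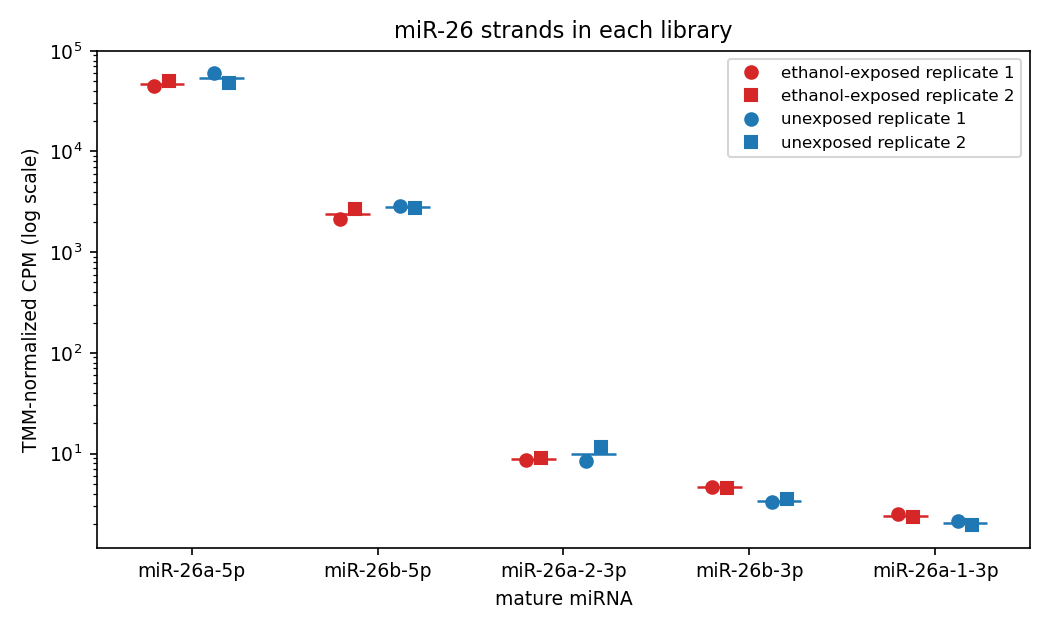
TMM-normalized CPM on a log scale for the 5 miR-26 strands in the 4 libraries, ethanol-exposed in red and unexposed in blue, circles for replicate 1 and squares for replicate 2, with a line at each group mean. The guides sit at means of 50367 and 2608 CPM over the 4 libraries and the passengers between 2.23 and 9.39 CPM, and within a strand the highest library was at most 1.42 times the lowest.

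The passenger strands rested on 25 to 221 counts a library. hsa-miR-26a-2-3p, from CTDSP2, was read 216 and 221 times in exposed cells and 99 and 148 times in unexposed cells, or 8.57 and 9.08 against 8.39 and 11.5 TMM CPM. The unexposed cultures lay on both sides of the exposed ones. The log2 fold change was -0.17 (standard error 0.30, 95% interval -0.86 to 0.51), with a P of 0.572 and an adjusted p of 0.970 in edgeR, and without unexposed replicate 2 it was 0.036.

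hsa-miR-26a-1-3p, from CTDSPL, was the rarest member, with 63 and 57 counts in the exposed and 25 counts in each unexposed library. These were 2.50 and 2.34 TMM CPM against 2.12 and 1.94 TMM CPM, so the groups did not overlap. The 95% Wilson intervals of its share before scaling did overlap, at 2.22 to 3.63 and 1.77 to 2.97 CPM in exposed against 1.21 to 2.65 and 1.40 to 3.05 CPM in unexposed cells. Exposed over unexposed, the log2 change was 0.25 (standard error 0.31, 95% interval -0.47 to 0.97), with a P of 0.439 and an adjusted p of 0.966 in edgeR, and without unexposed replicate 2 it was 0.154.

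hsa-miR-26b-3p, the passenger from CTDSP1, was read 118 and 110 times in exposed cells and 39 and 45 times in unexposed cells. At 4.68 and 4.52 against 3.31 and 3.50 TMM CPM the groups did not overlap, and replicates of a group lay close together. The exposed mean was 4.60 ± 0.113 and the unexposed mean 3.40 ± 0.135 (SD, n = 2 each), which is 0.43 on the log2 scale with a standard error of 0.30 and a 95% interval from -0.25 to 1.12. This was the widest difference among the members, and it did not pass the test, with a P of 0.181 and an adjusted p of 0.922 in edgeR. The standard error in edgeR shares information on spread over all miRNAs tested, where its median was 0.33. It does not reflect these close replicates alone. Before scaling, its 95% Wilson intervals ran from 4.43 to 6.36 and from 3.67 to 5.33 CPM in exposed cells, and from 2.05 to 3.82 and from 2.78 to 4.98 CPM in unexposed cells.

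None of the 5 members (0) had an unadjusted P under 0.05 in edgeR, limma-voom or DESeq2. Over all 863 miRNAs 39, or 4.52%, had such a P in edgeR, 31 in limma-voom and 28 in DESeq2. For a fold change above 2 together with a P under 0.05 the count was 0 of 5 members and 20 of 863 miRNAs, or 2.32%. An adjusted p under 0.05 was reached by 0 of 863 (0%) in each of these tests. The TMM CPM of the groups did not overlap for 3 of the 5 members (miR-26b-5p lower, miR-26a-1-3p and miR-26b-3p higher in exposed cells), beside 288 of 863, or 33.4%, over all miRNAs. Of these, 162 (18.8%) were higher and 126 (14.6%) lower in exposed cells. The median log2 fold change was -0.17 over the 5 members and -0.01 over all miRNAs tested. A two-sided exact permutation test cannot give a p under 0.333 with 2 cultures against 2, and it gave 0.667 for miR-26a-5p, 1 for miR-26a-2-3p and 0.333 for the other members.

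**Figure D2:**
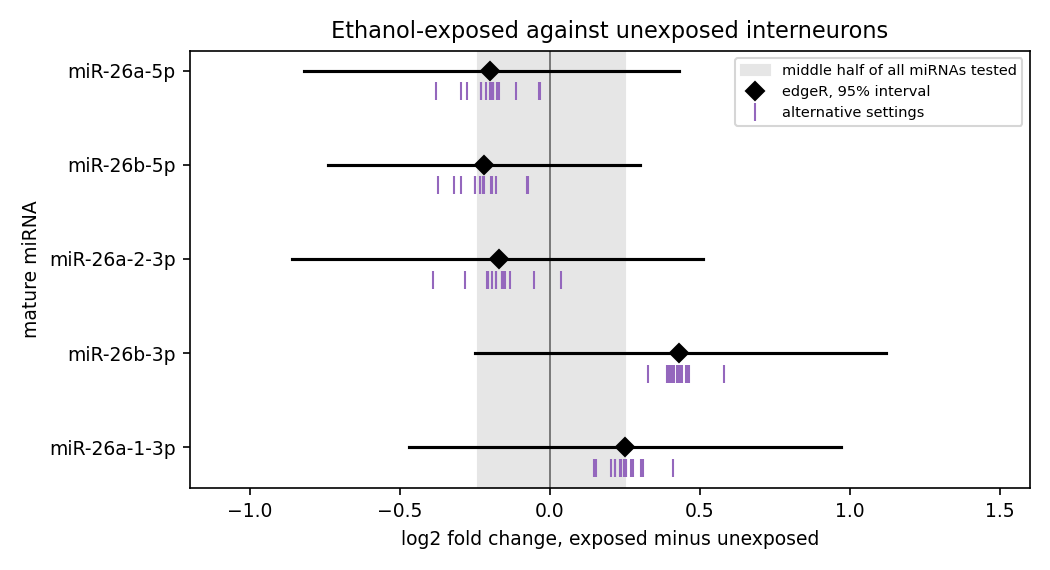
Log2 fold change of each miR-26 strand, exposed minus unexposed, with edgeR's estimate as a diamond, its 95% interval as a line and the values under the alternative settings as purple ticks. The shaded band from -0.24 to 0.25 runs from the lower to the upper quartile of all 863 miRNAs tested, and each of the 5 intervals includes 0.

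The spread between cultures was as wide as the difference between groups, or wider, in at least 1 group for miR-26a-5p, miR-26b-5p and miR-26a-2-3p, and narrower in both groups for miR-26a-1-3p and miR-26b-3p. Between the unexposed replicates miR-26a-5p differed by 0.32 and miR-26a-2-3p by 0.45 on the log2 scale, and between the exposed replicates miR-26b-5p differed by 0.31. The other differences between replicates were 0.17 or smaller, and for miR-26b-3p they were 0.05 and 0.08. Over all miRNAs tested the median absolute difference was 0.24 between exposed and 0.34 between unexposed replicates, and for the 72 miRNAs with a mean of at least 1000 TMM CPM it was 0.18 and 0.40.

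In the order of mean TMM CPM, miR-26a-5p stood between miR-7-5p, an abundant neuronal miRNA, and let-7f-5p, a member of the let-7 family that increases as cells differentiate. miR-7-5p was above miR-26a-5p in 4 of 4 libraries, at 79250 and 135236 in exposed and 187070 and 146053 TMM CPM in unexposed cells. let-7f-5p was at 33887 and 51522 against 60904 and 42461 TMM CPM, above miR-26a-5p in 2 of 4 libraries, so let-7f-5p and miR-26a-5p did not differ beyond their spread, while the lowest library of miR-7-5p lay above the highest of miR-26a-5p. miR-26b-5p, at rank 39, stood between miR-181b-5p (mean 2821 TMM CPM, above it in 3 of 4 libraries) and miR-335-3p (mean 2549.7 TMM CPM, above it in 2 of 4), and the levels of these 3 overlapped. The passengers ranked 383 (miR-26a-2-3p), 484 (miR-26b-3p) and 574 (miR-26a-1-3p).

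**Figure D3:**
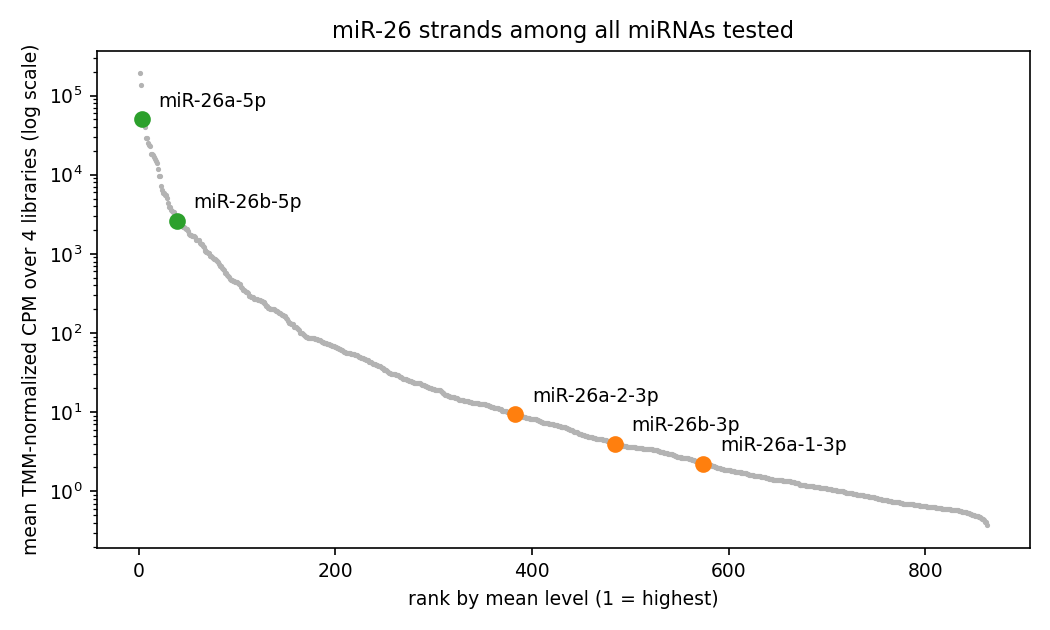
Mean TMM-normalized CPM over the 4 libraries (log scale) against rank for the 863 miRNAs tested, with the miR-26 guides in green and the passengers in orange. miR-26a-5p is at rank 3 and miR-26b-5p at rank 39, while the 3p strands lie between ranks 383 and 574.

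The family as a whole took 5.26% (95% Wilson interval 5.25 to 5.27%) and 5.13% (5.12 to 5.14%) of the counts of the exposed libraries. In the unexposed libraries it took 5.30% (5.29 to 5.31%) and 5.38% (5.36 to 5.39%). The exposed libraries lay below the unexposed ones by 0.139 percentage points on average (exposed 5.20 ± 0.0947%, unexposed 5.34 ± 0.0556%, SD, n = 2), with an exact permutation p of 0.333, the smallest that this design allows. The difference was -0.0725 without exposed replicate 2 and -0.206 without exposed replicate 1. Nearly all of the family was miR-26a-5p, from 94.6% to 95.4% of the family's counts, with 4.62% to 5.37% on miR-26b-5p and 0.0221% to 0.0339% on the passengers.

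Other miRNAs with the seed of the guides were at or near 0. The RefSeq table held 2 of them, miR-1297 and miR-4465, both of which are in the count table.
hsa-miR-1297: uUCAAGUAauucaggug
hsa-miR-4465: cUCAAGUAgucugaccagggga

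miR-1297 matched miR-26b-5p over its first 15 bases and differed at A16U and U17G. It had 0 counts in each library, a share of up to 0.121 to 0.248 CPM given the floor of 3 counts per library, while miR-26b-5p had 34116 to 65000 counts. miR-4465, which differed from miR-26a-5p at 11 of 22 positions, had 1 count in exposed replicate 2 and 0 counts in the other libraries. Among the 2367 miRNAs of the table with a RefSeq sequence, the counts with the seed UCAAGUA were thus those of the miR-26 guides, apart from 1.

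Ratios of strands within a library do not depend on the scaling between libraries. For miR-26a the guide was set against both 3p strands together, since both genes make it. There were 3997 guide counts per passenger count in exposed replicate 1 and 4352 in exposed replicate 2, and 5679.7 and 3557 in unexposed replicates 1 and 2. The unexposed cultures enclosed the exposed ones. The mean log2 ratio was 12.03 ± 0.0869 (SD, n = 2) in exposed and 12.13 ± 0.477 (SD, n = 2) in unexposed cells, and the difference of -0.11 was smaller than the spread between the unexposed cultures (exact permutation p = 1).

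For miR-26b the guide exceeded its passenger by less. The ratio was 460.2 and 591 with ethanol and 875 and 777 without. The groups did not overlap, and the passenger made up more of the strands in exposed cells. The mean log2 ratio was 9.03 ± 0.255 (SD, n = 2) in exposed and 9.69 ± 0.121 (SD, n = 2) in unexposed cells, a difference of -0.66, or 1.58-fold. The counting error of a single ratio, 1 standard error on the log2 scale, was 0.133 and 0.138 in exposed and 0.231 and 0.215 in unexposed cells. The exact permutation p was 0.333, the smallest that the design allows, and 0.5 after Benjamini-Hochberg adjustment over the 6 comparisons of ratios and share.

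The response of the arm balance was also compared between miR-26a and miR-26b, a comparison chosen after the values were seen. The log2 ratio of guide to passenger of miR-26a exceeded that of miR-26b by 3.0 ± 0.168 (SD, n = 2) in exposed and by 2.45 ± 0.356 (SD, n = 2) in unexposed cells, a difference of 0.55 with an exact permutation p of 0.333 (adjusted 0.5). Leaving out 1 library in turn gave differences from 0.301 (without unexposed replicate 2) to 0.805 (without unexposed replicate 1).

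The guides kept nearly the same proportion to each other. miR-26a-5p outnumbered miR-26b-5p by 20.5 and 18.6 to 1 with ethanol and by 20.6 and 17.6 to 1 without, and the groups overlapped. The log2 ratio was 4.29 ± 0.100 (SD, n = 2) in exposed and 4.25 ± 0.163 (SD, n = 2) in unexposed cells, a difference of 0.04 (exact permutation p = 1).

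Between the MIR26A genes, the 3p strand from CTDSP2 was the more abundant in every library. miR-26a-1-3p had 0.292 and 0.258 counts per count of miR-26a-2-3p with ethanol and 0.253 and 0.169 without. The exposed values lay above the unexposed ones, exposed replicate 2 by a margin far inside counting error, which was 0.207 to 0.323 on the log2 scale. The difference of the mean log2 ratios was 0.41 (exposed -1.87 ± 0.125, unexposed -2.28 ± 0.410, SD, n = 2; exact permutation p = 0.333). It rested on unexposed replicate 2, without which it was 0.119, and it was 0.699 without unexposed replicate 1.

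**Figure D4:**
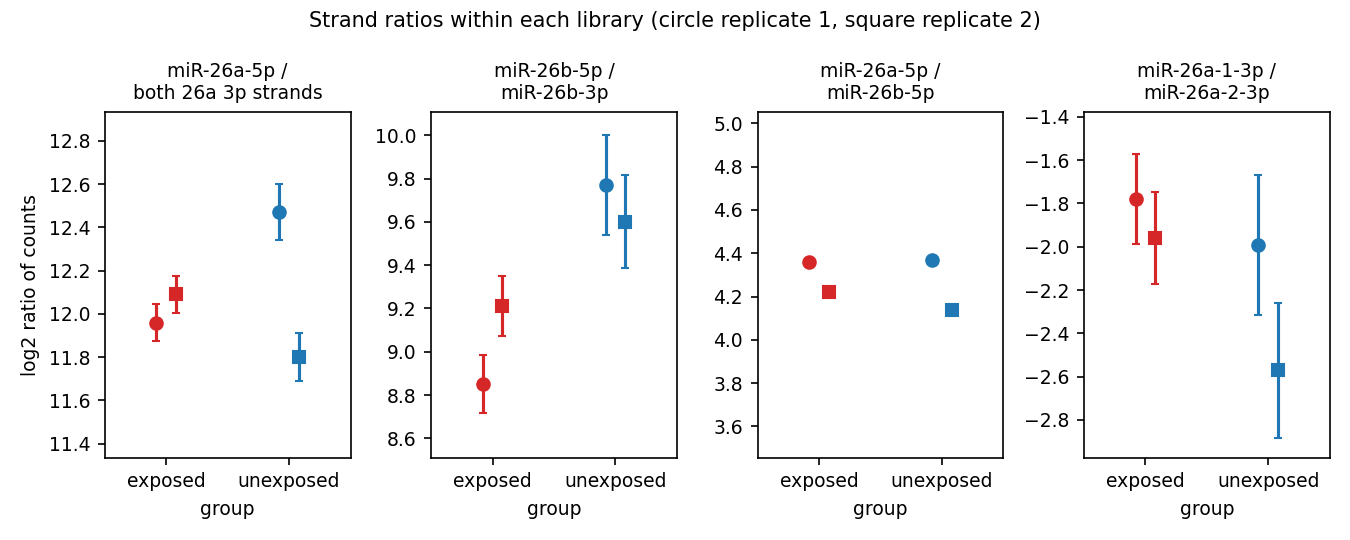
Log2 ratio of counts within each library for 4 pairs of miR-26 strands, exposed in red and unexposed in blue, with bars of 1 standard error of counting on each side and axes that span the same log2 range. The miR-26b-5p to miR-26b-3p ratio lies between 8.85 and 9.21 in exposed and between 9.60 and 9.77 in unexposed cells. The miR-26a-1-3p to miR-26a-2-3p ratio does not overlap either, at -1.78 and -1.96 in exposed and -1.99 and -2.57 in unexposed cells. The groups overlap for the miR-26a guide to passenger ratio and for the ratio of the guides.

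The strong preference for the 5p strand was set against other precursors. In 153 pairs of 5p and 3p strands with at least 10 counts of each strand in every library, a rule that leaves out pairs whose minor strand is rarer still, the mean log2 ratio of the major to the minor strand had a median of 3.32 and a highest value of 14.21. miR-26b, at 9.36, ranked 10 of 153. miR-26a, at 12.08, would have been below 3 of these pairs only, those of miR-99a, let-7i and miR-21. That place depends on how reads of miR-26a-5p were counted over its genes. Pairs were matched by name, so guides whose 3p strands are all numbered by gene, like miR-26a, are not among the 153. For let-7a and miR-181a a further 3p strand numbered by gene was not counted. Among these pairs, miR-26a and miR-26b are both near the one-sided end of the range.

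The groups did not overlap in the ratio of major to minor strand for 45 of the 153 pairs, or 29.4%, and for 27, or 17.6%, exposed cells had the lower ratio, as miR-26b did. The median difference over the 153 pairs was -0.073, with quartiles of -0.27 and 0.19. In 4 pairs the ratio was lower in exposed cells by more than the -0.66 of miR-26b, those of miR-6505, miR-151a, miR-493 and miR-98. These 4 were named after their values were seen.

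**Figure D5:**
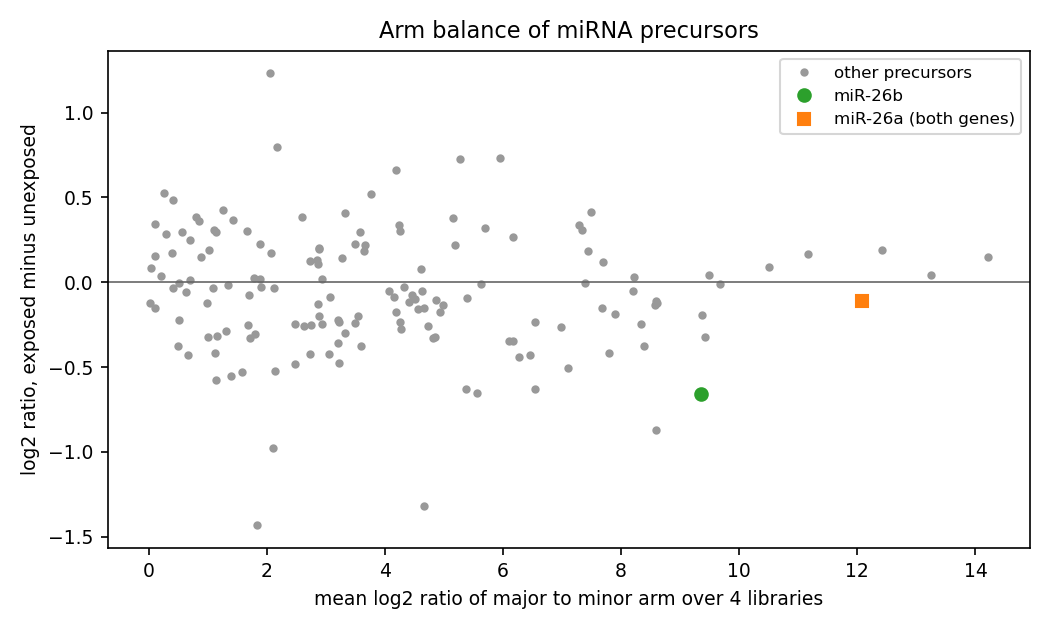
Difference between exposed and unexposed cells in the log2 ratio of major to minor strand, against the mean log2 ratio over 4 libraries, for 153 precursors (miR-26b in green) and for miR-26a with both genes summed (orange square). miR-26b lies at -0.66 on the vertical axis, below all but 4 of the other pairs, and miR-26a at -0.11.

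As the CTDSP phosphatases work with REST, 10 strands of miRNAs tied to the REST circuit were read beside the family. Of these, 10 passed the filter and 1 had a P under 0.05 in edgeR, next to 4.52% of all miRNAs tested. This was miR-124-3p, a miRNA that promotes neuronal identity and is repressed by REST. It was at 5406 and 3362 TMM CPM in exposed and 2948 and 2190 TMM CPM in unexposed cells, which did not overlap, as for 33.4% of all miRNAs tested. On the log2 scale this is 0.77 with a standard error of 0.30, and in edgeR's fit it had an adjusted p of 0.922 (0.0316 before adjustment). miR-132-3p, an activity-dependent neuronal miRNA, was at 1416 and 1403 against 1220 and 1243 TMM CPM, or 0.19 on the log2 scale (standard error 0.20), with a P of 0.367 in edgeR. miR-9-5p, which targets REST, was at 159473 and 192417 against 254022 and 157352 TMM CPM, and its log2 fold change was -0.23 (standard error 0.34) with a P of 0.524 in edgeR. The list holds both strands of miR-9, miR-124, miR-132 and miR-212, so its 10 strands do not come from 10 separate precursors. The log2 fold change was above 0 for 9 of the 10 strands and below 0 for 1, with a median of 0.20. Among the 9, miR-9-3p, miR-29a-3p and miR-29b-3p were at only 0.09, 0.07 and 0.03 (standard errors 0.23, 0.24 and 0.30). Other scaling moved the median of all miRNAs to between -0.119 and 0.145, so signs this near 0 depend on the scaling. The list was chosen with earlier results of these data known, and a joint direction was not tested. Over all 863 miRNAs tested it was above 0 for 421 and below 0 for 442, with a median of -0.01.

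The miRNAs whose levels ran most like those of the guides were found by the root mean square difference of the log2 TMM CPM, each centred on its own mean, over the 4 libraries and among 162 other miRNAs with a mean of at least 100 TMM CPM. For miR-26a-5p these were miR-23b-3p (0.0518), miR-330-3p (0.0526) and miR-192-5p (0.0637). For miR-26b-5p they were miR-500a-3p (0.0387), miR-192-5p (0.0477) and miR-1301-3p (0.0485). The guides differed from each other by 0.0972, which placed miR-26b-5p at rank 15 for miR-26a-5p and miR-26a-5p at rank 11 for miR-26b-5p. With 4 libraries, such likeness is a description only.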

How the data were processed

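Small RNA libraries (NEBNext) of 2 ethanol-exposed and 2 unexposed cultures were used, with groups and replicate numbers from the labels. The authors ran CAP-miRseq on the reads, and raw counts per mature miRNA were deposited. The submitters' processing notes name hg19, and neither the version of CAP-miRseq nor the release of the miRNA annotation is given in the sources used here. The counts were fitted with edgeR 4.0.16 in R 4.3.3: filterByExpr (minimum count 10, minimum total 15), TMM factors, the quasi-likelihood test without covariates and Benjamini-Hochberg adjustment over 863 miRNAs. Standard errors came from the F statistic. DESeq2 1.42.0 (all miRNAs kept in its adjustment), voom in limma 3.58.1, other scaling and filters, the replicate block and leaving out each library were alternatives. Ratios and shares were tested with two-sided exact permutation tests (SciPy 1.17.1). The fit was also run on simulated counts with known changes, and the outcome is not reported here.

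Sequences came from RefSeq, which held 2367 of the 2656 names, 5 of them members, and introns from GENCODE 29. The named miRNAs were the members, others with their seed, a REST circuit list, neighbours in level and the 3 most alike to each guide. Members and lists were chosen with earlier results of these data known. Nothing states that the libraries came from separate differentiations, so p-values measure the spread between these cultures, which may be technical. Replicates of a group differed by a chi-square of 712 or more per degree of freedom, so none was a repeated library.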

Additional observations from a re-analysis of the deposited data

How the results depend on the processing

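Of 149 values recomputed under the alternatives, 146 kept their direction and side of the P threshold or, for ratios and shares only, moved by less than the spread between replicates. Ratios that changed sign within that spread are among the 146. So are the counts of members past a threshold, which were 0 throughout. No member (0 of 5) passed an unadjusted P of 0.05 under any of the 16 alternative fits, and their adjusted p ranged from 0.691 to 1. The log2 fold change of miR-26a-2-3p changed sign without unexposed replicate 2, and its range with 1 library left out in turn was -0.389 to 0.036 (the cause was not tested). In those fits the lone library of a group was assumed to vary like the other group. The guide to passenger ratio of miR-26a went from -0.445 without unexposed replicate 2 to 0.23 without unexposed replicate 1, the ratio of the guides from -0.078 without unexposed replicate 2 to 0.151 without unexposed replicate 1, and that of miR-26b stayed between -0.841 and -0.48. The difference in the summed share went from -0.139 to -0.719 percentage points with TMM-scaled CPM and to -0.807 without the other two most abundant miRNAs in the denominator, since both change what the family is divided by. Library size only moved the median log2 fold change of all miRNAs to 0.145 and upper quartile scaling to -0.119, and all 5 members kept their sign under each scaling. Past 2-fold and P under 0.05 there were 20 miRNAs by edgeR and 10 by DESeq2, 12 when CPM had to exceed 1 in 2 libraries, 11 when every library needed 10 counts, and 49 (94 by P alone against 39) when any count sufficed. Leaving out exposed replicate 1, exposed replicate 2, unexposed replicate 1 or unexposed replicate 2 gave 10, 40, 42 and 44 such miRNAs, none of them a member, and 1, 5, 18 and 15 miRNAs with an adjusted p under 0.05 against 0 with all libraries and 6 when any count sufficed.

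Libraries with the same number deviated from their group means with a correlation of -0.214. With so few libraries in a group, this cannot decide whether the numbers pair the samples. With the replicate block the log2 fold changes were -0.189 for miR-26a-5p, -0.225 for miR-26b-5p, 0.252 for miR-26a-1-3p, -0.158 for miR-26a-2-3p and 0.434 for miR-26b-3p, the block left 0 members past P and 25 miRNAs against 39 in all, and the ratios were as without it. With the crossed pairing, chosen after seeing the data, 59 miRNAs and 0 members had a P under 0.05. Passenger counts of 25 to 221 limit the 3p strands and every ratio that rests on them.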
